A study of Mus musculus with 3 samples.

Results

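Histone deacetylases remove acetyl groups from lysines, and Kdm1a (LSD1) removes methyl groups from lysine 4 of histone H3. They were taken as 10 genes, Hdac1 to Hdac8, Hdac11 and Kdm1a, by matching the accession of each gene probe to RefSeq symbols. This gave 12 of the 41174 gene probes on the arrays, and 10 of the 15724 genes that could be named. The Gtf2i product TFII-I is known to bind complexes that hold deacetylases and this demethylase, which is why the genes are grouped here. The rule itself uses no measured value.

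RNA came from the dissected cortex of mice aged 16 weeks. The 2 groups were Gtf2i(+/Δex2) mice, which carry a Gtf2i copy without exon 2 going by the allele name, and WT(+/+) mice. Both had a mixed background of 98.4% C57BL/6J and 1.6% 129Sv/CD1, and the labels name no other allele and no treatment. RNA of 3 to 5 mice per genotype was pooled before labelling, so spread between single mice was not measured. Each of 3 two-colour Agilent arrays set a mutant pool against a wild-type pool, with Cy3 on the mutant on replicates 1 and 3 and Cy5 on the mutant on replicate 2. Nothing in the labels says whether the arrays drew on different pools. The p-values below therefore cover array-to-array spread alone, and that spread may be technical. Ratios are log2 of mutant over wild-type intensity, a direction that is likely and not certain: it rests on the titles, on the deposited readme, which defines test over control, and, if they carry a Cy3 label, on the Pro25G control spots, whose median log2 ratio was 4.51, -4.54 and 4.58 on replicates 1, 2 and 3. Were the direction turned, each rise below would be a fall of the same size and each fall a rise, with the same p.

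With that direction, Gtf2i read 72.0% and 80.4% of wild type at its 2 probes, A_52_P442585 and A_51_P499905. The log2 ratios were -0.46, -0.44 and -0.52 at the first and -0.34, -0.34 and -0.26 at the second on replicates 1, 2 and 3 (limma adjusted p = 0.00260 and 0.00505). Their position with respect to the deleted exon was not determined, so they do not check the genotype by themselves. Reliable gene spots made up 64.4% to 69.7% of an array, and negative control spots had median intensities of 75.5 to 81.0 in the mutant channel and 72.3 to 81.4 in the wild-type channel. Glutamatergic markers of cortex were detected, 5 of 5, and 3 of these fell and 0 rose, with summed intensities of 19473 to 32236 in mutant and 25356 to 42200 in wild-type RNA. Of 5 measured astrocyte markers 4 fell and 0 rose, with sums of 21721 to 25603 in mutant and 27156 to 28747 in wild-type RNA. Of 6 measured oligodendrocyte markers 3 fell and 1 rose, with sums of 42681 to 55629 in mutant and 47881 to 65518 in wild-type RNA. The marker genes Gfap and Olig2 were not analysed here, and no measured marker was at 0. Without replicate 1 the falls were 2, 4 and 2 in the 3 lists, and without replicate 2 there were 2 rises among the oligodendrocyte markers. For thalamic markers the log2 ratio averaged 0.70 on replicate 3 but -0.04 on replicate 1 and -0.07 on replicate 2. Of 5 measured thalamic markers 1 rose and 0 fell, with 0 and 0 without replicate 1 or 2, and 1 and 2 without replicate 3. Endothelial and pericyte markers rose in 2 of 3 measured and choroid plexus markers in 2 of 4, or 1 of 4 without replicate 1, and blood markers fell in 3 of 3, or 1 of 3 without replicate 1 or 2. Of 4 measured microglia markers 1 rose and 3 fell, with 0 and 0 called without replicate 1, 1 and 2 without replicate 2, and 0 and 3 without replicate 3. Of 6 GABAergic markers 0 rose and 2 fell, with 1 and 1 without replicate 1, 0 and 1 without replicate 2, and 2 and 3 without replicate 3. Of 5 striatal markers 0 rose and 2 fell, with 0, 1 and 4 falls without replicates 1, 2 and 3 in turn, and their log2 ratio averaged -0.30, -0.31 and 0.05 on the 3 arrays. The part of these shifts in the results below was not tested, and in bulk tissue fewer cells of a type and less RNA per cell cannot be told apart.

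Class I deacetylases, Hdac1, Hdac2, Hdac3 and Hdac8, are mostly nuclear. Hdac1 and Hdac2 are close paralogues that form the catalytic core of the Sin3, NuRD and CoREST complexes, and in CoREST they sit beside Kdm1a. Hdac3 works in the NCoR complex, and TFII-I is known to bind it. Class IIa members, Hdac4, Hdac5 and Hdac7, have weak activity of their own, bind MEF2 factors and shuttle out of the nucleus in a way that depends on phosphorylation. Hdac6, of class IIb, is mainly cytoplasmic and deacetylates tubulin, and Hdac11 is the only class IV enzyme and is abundant in brain.

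Among the 10 genes, Hdac2 rose in the mutant cortex, Hdac11 and Hdac6 fell, and the other 7 did not pass the test. The test was a limma fit over 27530 probes, with Benjamini-Hochberg adjustment over all of them at a threshold of 0.05. Of the 12 probes 11 were tested, the exception being an Hdac7 probe not reliable on any array. At this threshold 3 of the 11 tested member probes were called, against 33.9% of all tested probes. The call was higher for 1 member probe, against 15.0% of all tested probes, and lower for 2, against 18.9%. By gene, taking the probe with the smallest p, 1 of 10 rose and 2 fell, where 40.7% of named genes were called, 17.1% higher and 23.6% lower. This rule gives genes with several tested probes more chances of a call, and among the members only Hdac8 had 2. With all 3 arrays the share of members called was not above the background. All 3 arrays had 1 sign at 7 of the 11 tested member probes, as at 65.1% of all tested probes. Overlap of the genotypes over the arrays is described for single probes below, and its share over all tested probes is not given. Such overlap compares intensities across arrays and leaves out the pairing within each array. Without replicate 1 only 1 of the 11 was called, against 8.75% of all tested probes, and without replicate 2 there were 2, against 25.6%. Without replicate 3 there were 6 of 11, against 35.9%, so the reading against the background depends on the arrays used. Mean ratios of 9 of the 11 tested member probes were below 0, as were those of 50.4% of all tested probes, and the member median was -0.07 against 0.00 for all tested probes.

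**Figure D1:**
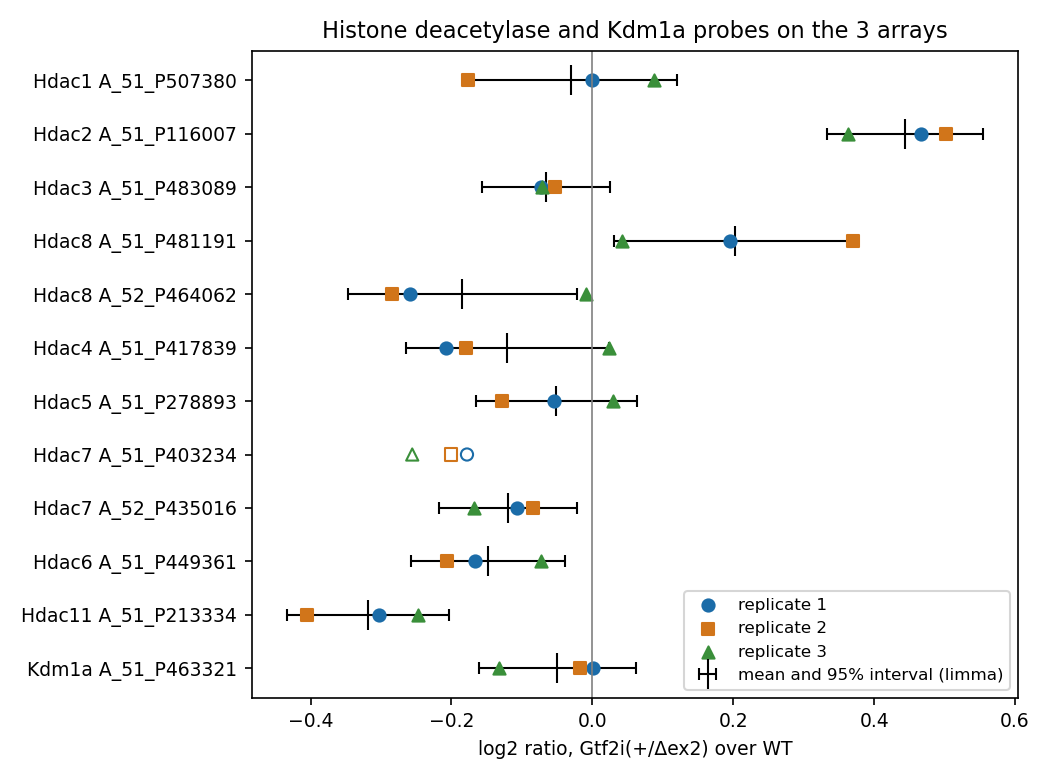
Log2 ratios of Gtf2i(+/Δex2) over WT for each of the 12 probes (rows), with the 3 arrays as separate markers. The mean is a vertical tick and its 95% limma interval, not adjusted for the number of probes, a bar. Open markers are the Hdac7 probe that was not tested. All 3 arrays lie right of 0 for Hdac2, left of 0 for Hdac11 and Hdac6, and on opposite sides for the 2 Hdac8 probes.

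Hdac2 had the largest change among the 11 tested member probes and the only rise that passed, which would be the largest fall with the direction turned. Its probe A_51_P116007, which carries accession NM_008229, had intensities of 355, 407 and 298 in mutant RNA on replicates 1, 2 and 3, against 257, 287 and 232 in wild-type RNA. The mutant channel was the brighter on every array, with either dye, and the ranges of the 2 genotypes over the arrays did not overlap. The log2 ratios were 0.47, 0.50 and 0.36, with a mean of 0.44 ± 0.07 (SD, n = 3 arrays) and a 95% interval of 0.33 to 0.56, which is 136% of wild type (limma adjusted p = 0.00345). This ratio stood at the 98.1th percentile of all tested probes, or at percentile 1.92 with the direction turned. The rise passed in all 14 alternatives for this probe, with adjusted p from 5.06e-05 to 0.0340. After subtraction of the negative control level from both channels the mean ratio was 0.59. Hdac2 was also the only one of the 11 tested member probes with a B statistic above 0, the rule that the readme gives, which 9.67% of all tested probes met.

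Hdac1, the paralogue of Hdac2, did not pass. Its probe A_51_P507380 had 930, 944 and 996 in mutant RNA and 930, 1067 and 937 in wild-type RNA, so the genotypes overlapped. The log2 ratios of 0.00, -0.18 and 0.09 averaged -0.03 ± 0.13 (SD, n = 3; limma adjusted p = 0.727), with a 95% interval of -0.18 to 0.12. Taken within each array, the Hdac2 ratio exceeded the Hdac1 ratio by 0.47, 0.68 and 0.27, a mean difference of 0.47 ± 0.20 (SD, n = 3). The exact sign-flip permutation test on these 3 differences gave a two-sided p of 0.25, the smallest that 3 arrays allow. RefSeq lists a pseudogene name among the synonyms of Hdac1, and whether a related sequence adds to either signal was not tested.

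Promoter sequence is shown for the members with the clearest rise and the clearest fall, Hdac2 and Hdac11, because TFII-I is known to bind promoter elements that include E-boxes. The 250 bases before each start are given on the coding strand from RefSeq on GRCm38.p6, at chr10:36974294-36974543 (plus strand) for Hdac2 and chr6:91156565-91156814 (plus strand) for Hdac11. Capitals mark matches to the E-box pattern CANNTG.
Hdac2: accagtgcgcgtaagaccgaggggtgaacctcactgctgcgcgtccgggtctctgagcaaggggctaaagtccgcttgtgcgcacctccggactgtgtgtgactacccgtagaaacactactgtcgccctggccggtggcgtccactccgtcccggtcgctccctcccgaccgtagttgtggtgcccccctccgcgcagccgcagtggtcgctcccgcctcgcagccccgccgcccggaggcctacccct
Hdac11: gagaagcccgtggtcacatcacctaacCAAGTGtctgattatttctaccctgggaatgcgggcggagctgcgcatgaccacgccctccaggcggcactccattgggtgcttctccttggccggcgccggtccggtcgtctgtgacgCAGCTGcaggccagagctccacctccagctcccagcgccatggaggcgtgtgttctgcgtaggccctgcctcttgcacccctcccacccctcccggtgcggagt
The Hdac2 window held 0 matches to CANNTG and the Hdac11 window held 2, which begin 223 and 104 bases before the start. On either strand, CANNTG occurred in 66.2% of 32851 promoter windows of the same length. Neither window held CACGTG, a form contained in CANNTG and found in 6.02% of windows, nor GGATTA, a core sequence described for the TFII-I family and found in 6.25%. Windows of Hdac1 and Hdac3 were not examined here, so the counts that follow say nothing about these 2 genes. RefSeq windows were examined for the other 8 of the 10 genes. CANNTG was in at least 1 window of 5 of the 8: Hdac5, Hdac6, Hdac7, Hdac8 and Hdac11. CACGTG and GGATTA were in none of the 11 windows of the 8 genes. The Hdac2 window had a GC content of 68.8% and 27 CpG dinucleotides, and the Hdac11 window 65.2% and 17, where the median GC content of all windows was 52.4%. A match is only a description of the letters, and no binding was measured here.

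Hdac3, the catalytic subunit of NCoR, did not pass. Its probe A_51_P483089 had 700, 812 and 850 in mutant RNA and 736, 842 and 894 in wild-type RNA. The mutant channel was slightly lower on every array, by log2 ratios of -0.07, -0.05 and -0.07. The mean of -0.07 ± 0.01 (SD, n = 3) did not pass (limma adjusted p = 0.209), with a 95% interval of -0.16 to 0.02.

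Hdac8, whose known substrate is the cohesin subunit Smc3, had 2 dim probes that read in opposite directions. Probe A_51_P481191 had 170, 184 and 154 in mutant RNA and 148, 143 and 150 in wild-type RNA, higher in the mutant on every array without overlap between the genotypes. Probe A_52_P464062, with the same accession NM_027382, had 150, 148 and 166 in mutant RNA and 179, 180 and 167 in wild-type RNA, lower in the mutant on every array, also without overlap. Their mean log2 ratios were 0.20 ± 0.16 and -0.18 ± 0.15 (SD, n = 3), and neither passed (limma adjusted p = 0.0722 and 0.0800). The difference between the probes was 0.45, 0.65 and 0.05 on replicates 1, 2 and 3, so replicate 3 showed almost none of it (mean 0.39 ± 0.31, exact sign-flip permutation p = 0.25, the smallest possible). Without replicate 3 both passed, at 0.28 and -0.27. Their mean signals were 2.02 and 2.10 times the negative controls, and with that level subtracted A_51_P481191 read 0.37 and A_52_P464062 read -0.37, of which only the fall passed (limma adjusted p = 0.0460). The mean over both probes was 0.01, so no direction is given for Hdac8 as a gene. Which transcripts the probes match was not tested.

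**Figure D2:**
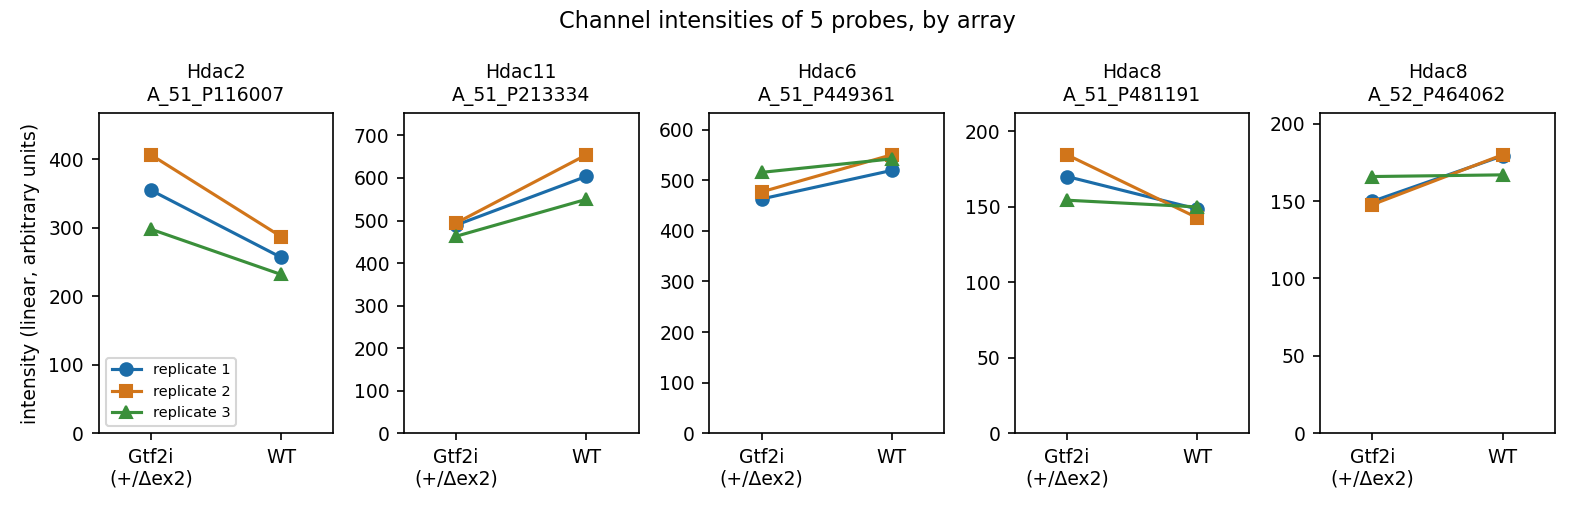
Linear intensities of 5 probes in Gtf2i(+/Δex2) (left) and WT (right) RNA, with a line joining the 2 channels of each array and the y axis starting at 0. Lines run down to WT for Hdac2 and Hdac8 A_51_P481191 and up to WT for Hdac11, Hdac6 and Hdac8 A_52_P464062, with the replicate 3 lines of both Hdac8 probes nearly flat.

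Class IIa deacetylases all had mean ratios below 0, and none passed. Hdac4, a brain-expressed repressor of MEF2 targets, had 744, 854 and 955 in mutant RNA and 859, 967 and 939 in wild-type RNA at probe A_51_P417839. It was lower in the mutant on replicates 1 and 2 (log2 ratios of -0.21 and -0.18) and not on replicate 3 (0.02). The mean was -0.12 ± 0.13 (SD, n = 3; limma adjusted p = 0.160), and without replicate 3 it was -0.19 and passed (limma adjusted p = 0.0212).

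Hdac5, which leaves the nucleus of neurons upon calcium signalling, had 10879, 13002 and 11275 in mutant RNA and 11295, 14213 and 11044 in wild-type RNA at probe A_51_P278893. The genotypes overlapped, and the mean log2 ratio was -0.05 ± 0.08 (SD, n = 3; limma adjusted p = 0.424) with a 95% interval of -0.17 to 0.06. Hdac7, best known from thymocytes and vessels, had 691, 669 and 720 in mutant RNA and 744, 709 and 810 in wild-type RNA at probe A_52_P435016. The genotypes overlapped over the arrays, though all 3 log2 ratios, -0.11, -0.08 and -0.17, were below 0. The mean was -0.12 ± 0.04 (SD, n = 3) with a limma adjusted p of 0.0660. Its unadjusted 95% interval, -0.22 to -0.02, excluded 0.

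Hdac6, the tubulin deacetylase, fell slightly. Its probe A_51_P449361 had 463, 477 and 516 in mutant RNA and 520, 550 and 542 in wild-type RNA, lower in the mutant on every array without overlap. The log2 ratios of -0.17, -0.21 and -0.07 averaged -0.15 ± 0.07 (SD, n = 3), or 90.2% of wild type, with an adjusted p of 0.0495 in the limma fit, just past the threshold. The call was lost in 8 of 14 alternatives, among them without replicate 1 (limma adjusted p = 0.271), without replicate 2 (0.133) and with array medians centred on 0 (0.0539).

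Hdac11, the class IV enzyme, had the largest fall among the 11 tested member probes in the likely direction, and would have the largest rise with the direction turned. Its probe A_51_P213334 had 489, 494 and 463 in mutant RNA and 604, 655 and 550 in wild-type RNA. The mutant channel was lower on every array, with either dye, and the genotypes did not overlap. The log2 ratios were -0.30, -0.41 and -0.25, with a mean of -0.32 ± 0.08 (SD, n = 3) and a 95% interval of -0.43 to -0.20, or 80.2% of wild type (limma adjusted p = 0.00697). The ratio stood at the 7.26th percentile of all tested probes, or the 92.7th with the direction turned. The call held in 13 of 14 alternatives and was lost without replicate 1, where the mean was -0.33 (limma adjusted p = 0.0563).

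Kdm1a, the demethylase of the CoREST complex, did not change detectably. Its probe A_51_P463321 had 1397, 1591 and 1273 in mutant RNA and 1396, 1610 and 1396 in wild-type RNA. Replicates 1 and 2 were level (log2 ratios of 0.00 and -0.02) and replicate 3 was lower in the mutant (-0.13). The mean of -0.05 ± 0.07 (SD, n = 3; limma adjusted p = 0.422) had a 95% interval of -0.16 to 0.06, and no alternative among 14 called it.

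**Figure D3:**
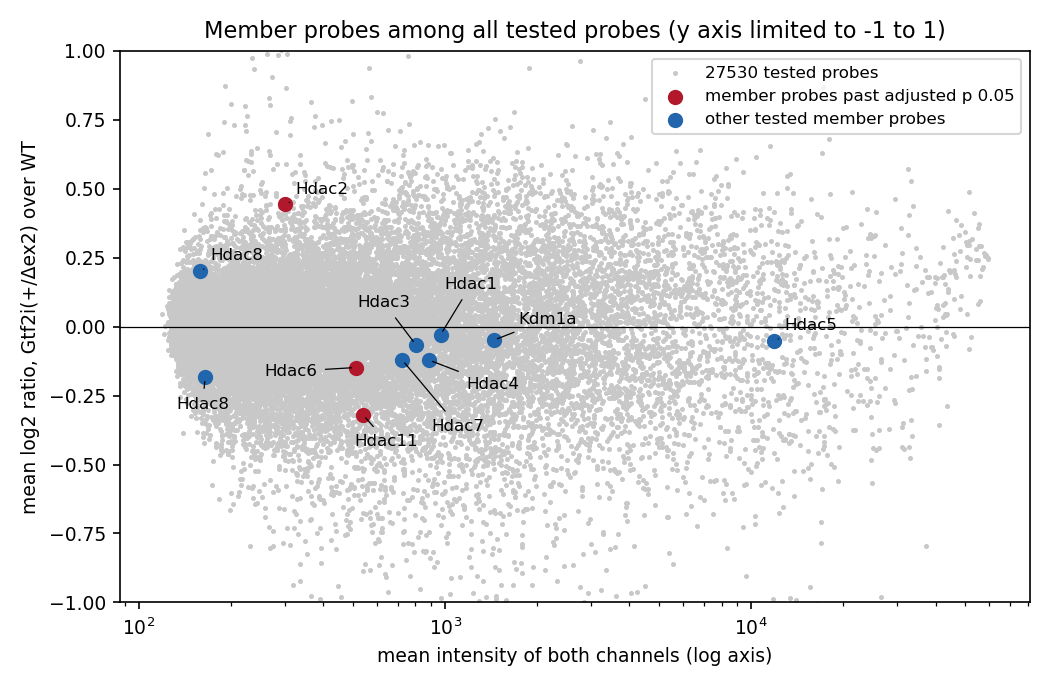
Mean log2 ratio of Gtf2i(+/Δex2) over WT (y axis, limited to -1 to 1) against mean intensity of both channels (x axis, log scale) for 27530 tested probes (grey) and the 11 tested member probes (red where past the adjusted threshold of 0.05, blue otherwise). Hdac2 lies at the upper edge of the cloud at its brightness, Hdac11 toward the lower edge, and most other members near 0.

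Calls were more frequent among bright probes, and the members spanned that range. Of all tested probes, split into 4 equal bins of brightness, 14.1% were called in the dimmest bin, which holds both Hdac8 probes, and 30.4% in the next, which holds Hdac2. The share was 40.8% in the third bin, which holds Hdac3, Hdac4, Hdac6, Hdac7 and Hdac11, and 50.3% in the brightest, which holds Hdac1, Hdac5 and Kdm1a. Replicate 3 gave the smallest ratio in size at 7 of the 11 tested member probes, where it did so at 38.6% of all tested probes.

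The partners and opposing enzymes of these proteins moved both ways. Of 128 listed genes 93 were measured, and 18 rose and 34 fell by the probe with the smallest p, with a median log2 ratio of -0.09 over the 93 against -0.02 over all named genes. As above, 17.1% of named genes rose and 23.6% fell. Without replicate 1 the counts were 4 and 15 of 93, where 4.02% of named genes rose and 7.01% fell.

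In the CoREST complex, which joins Hdac1, Hdac2 and Kdm1a to the repressor REST, 4 of 13 measured genes rose and 4 fell (median -0.04). The falls were led by the co-repressor gene Ctbp1 (-0.55 ± 0.07), Phf21a, which reads unmethylated lysine 4 of histone H3 (-0.43 ± 0.02), and the scaffold gene Rcor3 (-0.30 ± 0.05; log2 ratio, SD, n = 3). Without replicate 1 the counts were 1 and 2, and Rcor3 lost its call (limma adjusted p = 0.0670). Outside the naming rule and chosen after the values were seen, the scaffold gene Rcor1 read 0.01 and Gse1, whose product copurifies with Kdm1a, rose by 0.36 ± 0.11 (SD, n = 3).

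Sin3 and NuRD are the other complexes built on Hdac1 and Hdac2. Of 9 measured Sin3 genes 2 rose and 4 fell (median 0.05), led by the subunit gene Suds3 (-0.59 ± 0.11), Brms1 (-0.21 ± 0.08) and Sap30 (0.41 ± 0.23; log2 ratio, SD, n = 3). The other probe of Suds3 read 0.04, and the other probe of Brms1 read -0.10 and did not pass. The Sin3 counts were 0 and 1 without replicate 1, 1 and 1 without replicate 2, and 4 and 4 without replicate 3. Brms1 and Sap30 lost their calls without replicate 1 (limma adjusted p = 0.143 and 0.0964) and without replicate 2 (0.0623 and 0.0578).

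Of 7 measured NuRD genes 1 rose and 4 fell (median -0.21). The remodelling ATPase gene Chd4 read -0.42 ± 0.14, and Mta1 and Mbd3, structural and methyl-DNA-binding family subunits, read -0.33 ± 0.14 and -0.31 ± 0.13 (log2 ratio, SD, n = 3). All 3 tested probes of Chd4 passed, between -0.51 and -0.28. NuRD counts were 0 and 1 without replicate 1 and 2 and 4 without replicate 3. Mta1 and Mbd3 lost their calls without replicate 1 (limma adjusted p = 0.0694 and 0.0987), and Mbd3 without replicate 2 as well (0.0539). Rbbp4 and Rbbp7, histone-binding subunits of both complexes, did not pass (-0.33 ± 0.31 and 0.15 ± 0.15; log2 ratio, SD, n = 3), though without replicate 3 1 of them rose.

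NCoR is the co-repressor complex that activates Hdac3. Of 4 measured genes in its list 2 fell, or 3 without replicate 2. Ncor1, the scaffold, fell at both of its probes (-0.59 ± 0.14 and -0.52 ± 0.12) and Tbl1x, a WD40 subunit, fell by 0.44 on the log2 scale. In the MiDAC complex, a further home of Hdac1 and Hdac2, Dnttip1 (-0.10) and Trerf1 (-0.10) did not pass.

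The class IIa list holds kinases, carriers and targets of Hdac4, Hdac5 and Hdac7. Of 16 measured genes 1 rose and 7 fell (median -0.13). They were led by Camk4, a calcium-dependent kinase that phosphorylates these enzymes (-0.82 ± 0.05), Mef2c, the factor they repress (-0.64 ± 0.04), and the 14-3-3 gene Ywhae, whose product binds the phosphorylated enzymes (-0.43 ± 0.08; log2 ratio, SD, n = 3). These 3 passed whichever replicate was left out. The other probe of Camk4 read -0.02, and the other probe of Ywhae -0.25. The 1 rise was Ankra2 (0.24), outside the naming rule. Its other probe passed in the other direction, at -0.24 (limma adjusted p = 0.0140). Counts were 0 and 4 without replicate 1 and 3 and 7 without replicate 2.

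**Figure D4:**
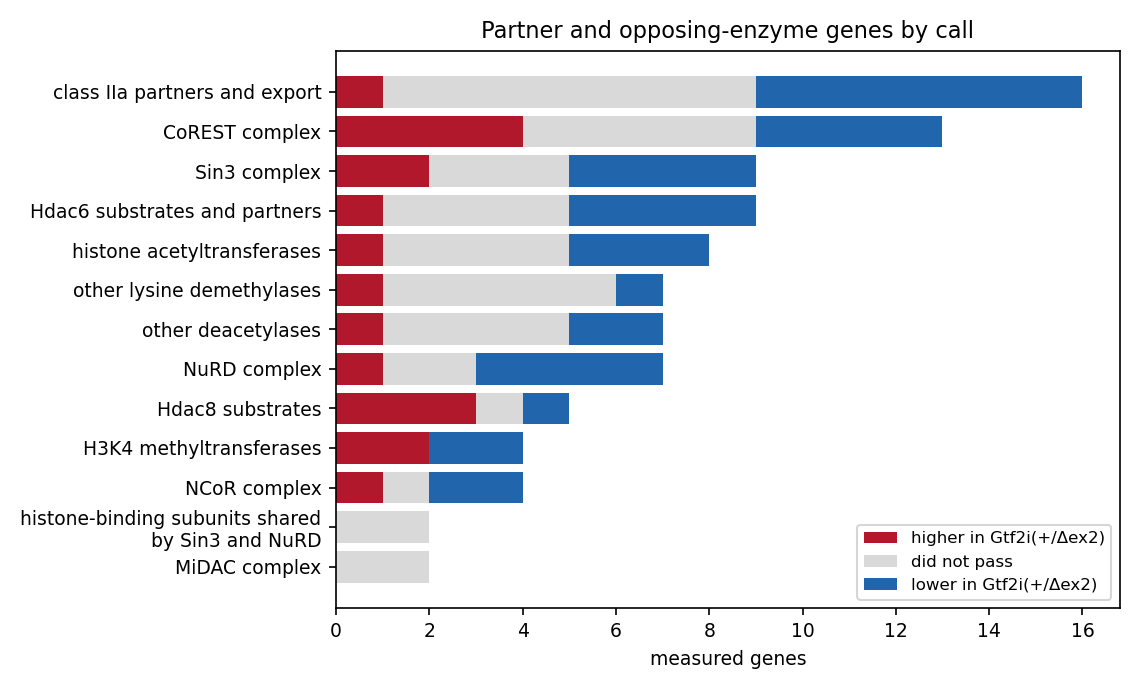
Number of measured genes in each list of partners and opposing enzymes (rows) that were higher in Gtf2i(+/Δex2) (red), did not pass (grey) or were lower in Gtf2i(+/Δex2) (blue), by the probe of each gene with the smallest p. Falls outnumber rises in NuRD (4 and 1) and the class IIa list (7 and 1), and the CoREST list holds 4 of each.

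Substrates and partners of single members were also read. Of 9 genes listed for Hdac6, 1 rose and 4 fell (median -0.07), led by the polyubiquitin gene Ubb (-0.46 ± 0.02), the segregase gene Vcp (-0.57 ± 0.11) and the dynein light chain gene Dynll1 (-0.41 ± 0.11; log2 ratio, SD, n = 3), and both Vcp probes fell. Counts were 0 and 3 without replicate 1 and 2 and 4 without replicate 2. Of 5 cohesin genes listed for Hdac8, 3 rose and 1 fell (median 0.14): Smc1a (0.36 ± 0.08) and Stag2 (0.28 ± 0.05) were among the rises and Stag1 (-0.61 ± 0.01; log2 ratio, SD, n = 3) was the fall. The other 3 probes of Stag1 read from -0.08 to 0.07, so its fall rests on 1 of 4 probes. The other probes of Smc1a and Stag2 read -0.12 and 0.09 and did not pass. Smc3, the substrate itself and outside the naming rule, read -0.09 and did not pass. Without replicate 1 the cohesin counts were 1 and 1, with Stag2 lost (limma adjusted p = 0.0609), and they were 2 and 1 without replicate 2 or 3.

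Other deacetylases and enzymes that work against these members were read next. Of 7 other deacetylases 1 rose and 2 fell (median -0.11): Sirt7 (0.21 ± 0.01) rose and Sirt2 (-0.22 ± 0.06) and Sirt1 (-0.28 ± 0.13; log2 ratio, SD, n = 3) fell, and all 3 calls were lost without replicate 1 (limma adjusted p = 0.109, 0.109 and 0.122). The other probe of Sirt1 read 0.09. Hdac10, the class IIb relative of Hdac6 and outside the naming rule, read -0.11 and -0.09 at its probes and did not pass, and Hdac9 was not analysed here. The falls numbered 3 without replicate 3.

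Of 8 measured acetyltransferases 1 rose and 3 fell (median -0.06). Kat2b (PCAF) rose by 0.39 ± 0.04, while Kat7 (-0.20 ± 0.04) and Kat5 (-0.21 ± 0.05; log2 ratio, SD, n = 3) fell. Without replicate 1 the counts were 1 and 0, and without replicate 2 they were 1 and 2. The other probe of Kat2b read -0.04.

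Among 7 other lysine demethylases 1 rose and 1 fell (median -0.14). Kdm1b, the relative of Kdm1a, rose by 0.46 ± 0.14, with 0.57, 0.50 and 0.30 on the 3 arrays, and Kdm5b, which also demethylates lysine 4, fell with -0.40 ± 0.05 (log2 ratio, SD, n = 3). Kdm5c, a relative of Kdm5b, read -0.19 and did not pass. Both calls held whichever replicate was left out, and the other probe of Kdm5b read 0.11. The falls were 2 without replicate 2 and 3 without replicate 3. Of 4 measured genes of the lysine 4 methyltransferase complexes 2 rose and 2 fell (median 0.00), namely Dpy30 (0.23), Ash2l (0.22), Rbbp5 (-0.28) and Wdr5 (-0.22). Without replicate 1 none of these 4 passed in the limma fit (adjusted p from 0.0697 to 0.198), and without replicate 3 1 rose. Ash2l falls outside the naming rule. The methyltransferase genes of this list themselves, Kmt2a to Kmt2e, Setd1a, Setd1b and Setd7, were not analysed here. The other probes of Dpy30 and Ash2l read -0.05 and 0.04.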

How the data were processed

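The authors deposited, per array, linear intensities of 2 channels for 44290 spots, background-subtracted, normalized and turned for the dye swap, per the deposited readme, which names GenePix and not the normalization method. They also deposited a collapsed log2 ratio, and a signed fold score that equals the series' value table, per the file headers. The readme calls a spot reliable above 2 times background.

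Because the deposited values were already normalized, they were used as they stood. Spots of a probe were averaged as log2 values. Probes reliable on at least 2 arrays were tested, 27530 of 41174. Accessions were matched without versions to RefSeq genes (GRCm38.p6), which named 21445 probes. Each mean log2 ratio was tested against 0 with limma 3.58.1 in R 4.3.3, adjusted over all tested probes. Recovery of known ratios was checked on simulated data with independent noise on each array, which does not cover RNA pools shared between arrays. Exact permutations used scipy 1.17.1, and tables and figures pandas 2.3.3 and matplotlib 3.10.9 in Python 3.11.15. The 3 arrays limit the precision.

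The members and lists were chosen with earlier results of these data known. Text names every member, Gtf2i and up to 3 genes of each list with the smallest p, except 1 gene that is not reported here. Alternatives covered normalization, background, filter, test and replicates. No columns of the value table were left unused.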

Additional observations from a re-analysis of the deposited data

Results flagged for a closer look

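The second Hdac7 probe, A_51_P403234, lay outside the tested set because no array called it reliable, yet it carried signal above the negative controls. Its intensities were 95.1, 98.2 and 91.5 in mutant RNA and 108, 113 and 109 in wild-type RNA, above the 95th percentile of negative control spots in 5 of 6 channels. The log2 ratio averaged -0.21 ± 0.04 (SD, n = 3), below 0 on all 3 arrays, and it passed when no probe was filtered (limma adjusted p = 0.0195). The tested Hdac7 probe A_52_P435016 read -0.12 ± 0.04, and the 2 probes differed by -0.09 ± 0.02 within arrays (exact sign-flip permutation p = 0.25, the smallest possible). At 1.31 times the negative controls the size of the dim probe's ratio depends on the background, and it was -1.04 with that level subtracted.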

How the results depend on the processing

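The main counts were 9333 probes called, 4141 higher and 5192 lower, with 3 member probes (1 higher, 2 lower) and 18 list genes higher and 34 lower. Leaving out 1 array gave 2409 to 9885 probes (930 to 4383 higher, 1479 to 5502 lower), 1 to 6 member probes (1 to 2 higher, 0 to 4 lower), and 4 to 18 list genes higher and 15 to 38 lower, each lowest without replicate 1. Array weights of 5.84, 0.373 and 0.459 on replicates 1, 2 and 3 gave 18617 probes (8689 and 9928), 8 member probes (2 and 6) and 31 and 52 list genes. These weights lie mostly on replicate 1, so the counts with them rest largely on 1 array. Hdac3, Hdac4, the tested Hdac7 probe and both Hdac8 probes passed with them and not in the main fit. With replicates 1 and 2 averaged as 1 there were 5120 probes (2149 and 2971), 1 member probe lower and 7 list genes higher. Loess, median centring and the deposited collapsed ratio each left 1 member probe lower, with Hdac6 lost, and the dye term gave 2 higher. The B rule gave 2661 probes and 1 member probe. With a 1.2-fold minimum, added after seeing the data, 2 of 11 member probes remained called, against 17.0% of all tested probes. Hdac1 ranged from -0.0884 without replicate 3 to 0.0440, a reversed sign, without replicate 2. The cause of these changes was not tested. Each ratio is already paired, mutant over wild type on 1 array, so no further replicate block could be fitted.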

Other observations

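Across the 27530 tested probes the ratios of replicates 2 and 3 correlated with a Pearson r of 0.625, and with a partial r of -0.05 once replicate 1 was taken into account. The partial r was 0.68 for replicates 1 and 2 given 3, and 0.60 for replicates 1 and 3 given 2. These are descriptions across probes, which share arrays and RNA pools and are not independent.

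Some very bright probes of the lists changed sign on replicate 2, which had the opposite dyes. The tubulin gene Tuba1a read 0.92, -0.81 and 0.69 on replicates 1, 2 and 3, and the 14-3-3 gene Ywhah read 0.95, -0.52 and 0.69, both outside the naming rule and chosen after their values were seen. Neither passed the test of the mean ratio, and the limma test for a dye effect called 0 of 27530 probes, with 2409 at an unadjusted p under 0.05, and 0 of the 11 member probes, with 1. Only replicate 2 had the opposite dyes, which leaves 1 residual degree of freedom per probe, so this test says little about the absence of a dye effect. The 3 Rbbp4 probes were lowest on replicate 3, at -0.69, -0.47 and -0.20.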
